A study of Mus musculus with 6 samples.

Results

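The 10 genes described here encode transcription factors that drive mesenchymal transition (Snai1, Snai2, Twist1, Twist2, Zeb1, Zeb2 and Prrx1) and cadherins whose expression changes with it (Cdh1, Cdh2 and Cdh11). They were chosen by gene symbol, through the gene identifiers of the deposited count table, and make up 10 of its 55335 genes. Each symbol matched 1 identifier. Of the 10, 9 passed the filter on low counts and were tested among 15881 genes, and Cdh1 did not pass it. The study asked which transcripts change when mouse embryonic fibroblasts (MEFs), connective tissue cells of mesenchymal type, pass through narrow pores. RNA was sequenced from wild-type parental MEFs (Ctrl, 3 libraries) and from wild-type MEFs that had crossed a transwell membrane with 3 μm pores within 15 h (Confine, 3 columns of which 2 are identical). Confine replicates 1 and 2 do not differ in any of the 55335 genes. They entered as a single library, called Confine 1 here, which leaves 3 Ctrl and 2 Confine libraries. All libraries came from 1 MEF line, nothing states that the replicates were separate cultures, and p-values then measure only the spread between these libraries, which may be technical.

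Snail, Twist and Zeb factors are known for repressing epithelial genes. These factors and the homeodomain protein Prrx1 are known for supporting a motile, mesenchymal state. E-cadherin (Cdh1), which joins epithelial cells to each other, is the best known gene that Snail, Twist and Zeb factors repress. N-cadherin (Cdh2) and cadherin-11 (Cdh11) are carried by mesenchymal cells. Snail and Zeb proteins bind DNA through zinc fingers at E-box motifs with the core CAGGTG, and Twist proteins bind E-boxes as basic helix-loop-helix dimers. Fibroblasts normally express many of these factors and lack E-cadherin.

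Total counts ranged from 22287210 to 32537550 per library, so that 3 counts, taken as the floor, corresponded to between 0.101 and 0.128 normalized CPM (counts scaled to library size with TMM factors). Correlations of log2 CPM over tested genes were 0.977 to 0.985 within Ctrl, lowest for the comparisons with Ctrl 2, and 0.982 between the Confine libraries. Of 9 fibroblast markers, Col1a1, Col1a2, Col3a1, Pdgfra, Pdgfrb and Vim were tested, while Lum had at most 1 count, Thy1 at most 2 and Dcn at most 27 counts in any library. Of the 6 tested, 4 rose and none fell, and all 9 are also in the mesenchymal list given later. The summed level of these markers was 8074 to 8814 CPM in Ctrl and 14186 to 14868 CPM in Confine. In bulk RNA, a change in the number of cells of a type and a change in RNA per cell cannot be told apart. A gene is said to have risen or fallen when its adjusted p was under 0.05 by the quasi-likelihood test of edgeR after Benjamini-Hochberg adjustment across the tested genes. By this rule 23% of all tested genes passed, 12.8% higher and 10.2% lower in Confine. These shares are the background against which the counts of each gene list are to be read.

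The most abundant Snail transcript was a different one in each group. Snai2 (Slug), the more abundant Snail transcript of parental cells, fell 5.40-fold (95% interval 3.83 to 7.61), while Snai1 (Snail), its paralog, rose 2.71-fold (2.04 to 3.59). Prrx1, a paired-related homeodomain factor of embryonic mesenchyme, rose 1.94-fold (1.47 to 2.56), and Zeb2 rose 1.51-fold (1.12 to 2.04). Zeb1, Twist1, Twist2, Cdh2 and Cdh11 did not pass the test. Thus 3 of the 9 tested genes rose and 1 fell, against the 12.8% and 10.2% of all tested genes above. The study used a log2 fold change of 1.5 as a cutoff, with a p for which no adjustment is stated. With an absolute log2 fold change above 1.5 and the adjusted p used here, Snai2 was the 1 gene of the 9 that passed, and 8% of all tested genes did (4.89% higher and 3.11% lower). The median log2 fold change of the 9 genes was 0.33, against -0.0021 over all tested genes.

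To show the sequence upstream of the members that rose, RefSeq windows (GRCm38.p6) were taken for the 5 of the 10 genes that have one (Snai1, Prrx1, Twist1, Twist2 and Zeb2). The bases upstream of the start site are shown for the 3 genes that rose, leaving out any that lie within the annotated gene. For Zeb2 this left the start at 45117442, which lies outside the annotated gene. The first bases after it are in no annotated Zeb2 transcript, whereas those of Snai1 and Prrx1 are in a transcript of their gene. Capitals mark CAGGTG or its reverse complement CACCTG, and matches were searched on both strands.
Snai1, chr2:167537945-167538194, plus strand: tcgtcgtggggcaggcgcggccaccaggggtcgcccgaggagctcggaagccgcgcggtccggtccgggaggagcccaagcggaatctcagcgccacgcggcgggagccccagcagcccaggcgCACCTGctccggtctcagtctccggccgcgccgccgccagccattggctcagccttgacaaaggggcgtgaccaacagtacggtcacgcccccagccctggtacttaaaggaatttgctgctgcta
Prrx1, chr1:163313711-163313900, minus strand: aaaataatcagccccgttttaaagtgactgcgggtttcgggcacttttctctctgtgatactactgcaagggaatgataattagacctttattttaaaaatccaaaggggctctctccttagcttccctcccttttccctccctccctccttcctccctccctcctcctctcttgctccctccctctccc
Zeb2, chr2:45117443-45117692, minus strand: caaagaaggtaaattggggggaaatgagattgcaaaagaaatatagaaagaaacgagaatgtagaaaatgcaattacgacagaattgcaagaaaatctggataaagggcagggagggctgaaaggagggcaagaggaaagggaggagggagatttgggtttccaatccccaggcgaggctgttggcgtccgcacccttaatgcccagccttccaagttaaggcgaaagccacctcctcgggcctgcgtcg
The Snai1 window holds 1 such E-box, which begins 126 bases upstream of the start site and is its only CANNTG match. No CAGGTG or CANNTG match lies in the 250 bases upstream of Prrx1, Twist1 or Twist2, or of any of the 4 RefSeq starts of Zeb2. Over 32851 RefSeq windows of the same 250 bases, 17.2% hold CAGGTG on either strand and 66.2% hold CANNTG, which includes it. Also searched were ACGTG, the core to which hypoxia-inducible factors bind, with 1 match upstream of Twist1 (16.6% of all windows hold it), and the AP-1 motif TGANTCA, with 2 matches upstream of another Zeb2 start than the one shown (6.75% of all windows). A match describes the letters only, and no binding was measured.

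Snai2, on chromosome 16 from 14705852 to 14709385 (GRCm38, plus strand), encodes a zinc finger repressor of epithelial genes. Its levels were 127.0, 86.7 and 146.2 CPM in Ctrl 1, 2 and 3 and 24.0 and 20.4 CPM in Confine 1 and Confine 3. Both Confine libraries lay far below every Ctrl library, and the Ctrl libraries differed among themselves more than the Confine libraries did. The group levels were 119.9 ± 30.3 CPM (SD, n = 3) and 22.2 ± 2.58 CPM (SD, n = 2). The log2 fold change was -2.43 (SE 0.24, edgeR adjusted p = 5.35e-07). Its size was at percentile 97.1 among all tested genes.

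Snai1, on chromosome 2 from 167538195 to 167542814 (plus strand), encodes the founding member of the same repressor family. It had 51.8, 35.3 and 49.2 CPM in the Ctrl libraries and 115.6 and 130.3 CPM in the Confine libraries. Every Confine value was above every Ctrl value, with Ctrl 2 the lowest of all. The group levels were 45.4 ± 8.86 CPM (SD, n = 3) and 122.9 ± 10.4 CPM (SD, n = 2). The log2 fold change was 1.44 (SE 0.19, edgeR adjusted p = 2.47e-05), just short of the study's cutoff on the fold. It was above that cutoff and passed without Ctrl 1 (1.54, edgeR adjusted p = 1.34e-05) and without Confine 1 (1.52, adjusted p = 7.73e-04).

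A ratio of 2 genes within a library does not depend on scaling between libraries. The log2 ratio of Snai2 to Snai1 counts (0.5 added to each) was 1.29, 1.30 and 1.57 in Ctrl and -2.27 and -2.68 in Confine. The groups did not overlap, and the mean ratio fell by 3.86 on the log2 scale (two-sided exact permutation test over libraries, p = 0.1, the smallest that 3 against 2 libraries allow). For comparison between genes, levels were also divided by the length of the annotated exons (normalized RPKM). On this scale Snai2 made up 66.3%, 66.3% and 70.4% of the summed Snai1 and Snai2 level in Ctrl and 14.3% and 11.1% in Confine. The sum itself was 87.4 ± 20.1 RPKM (SD, n = 3) in Ctrl and 86.8 ± 5.13 RPKM (SD, n = 2) in Confine, a difference far smaller than the spread between the Ctrl libraries. Of the remaining Snail-related genes, Snai3 had at most 4 counts, Scrt1 at most 1 and Scrt2 0 counts in any library.

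**Figure D1:**
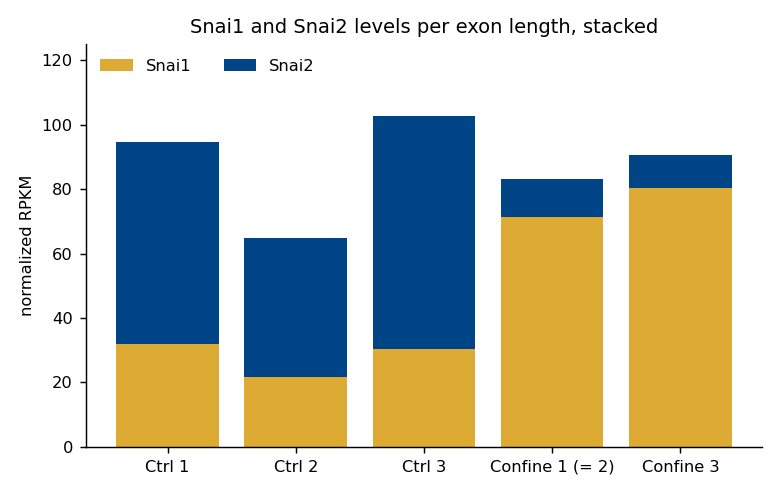
Stacked normalized RPKM (vertical axis, linear from 0) of Snai1 and Snai2 in each library (horizontal axis), with the identical Confine columns 1 and 2 shown once. The Snai2 part makes up 66.3% to 70.4% of the bar in the Ctrl libraries and 11.1% to 14.3% in the Confine libraries, while the whole bars of the groups overlap in height.

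Prrx1, on chromosome 1 from 163245119 to 163313710 (minus strand), had the highest CPM of the 10 genes. Its levels were 150.1, 221.0 and 190.5 CPM in Ctrl and 336.4 and 389.1 CPM in Confine. The lowest Confine library lay above the highest Ctrl library, which was Ctrl 2. The group levels were 187.2 ± 35.6 CPM (SD, n = 3) and 362.8 ± 37.3 CPM (SD, n = 2), with a log2 fold change of 0.95 (SE 0.19, edgeR adjusted p = 0.00114). Its paralog Prrx2, another homeodomain factor of mesenchyme, had 65.9 ± 5.24 CPM (SD, n = 3) in Ctrl and 78.2 ± 4.30 CPM (SD, n = 2) in Confine and did not pass (log2 fold change 0.25, edgeR adjusted p = 0.351).

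Zeb1 and Zeb2 encode large repressors with zinc fingers at each end and a homeodomain between them. Zeb2, on chromosome 2 from 44983632 to 45117395 (minus strand), had 24.2, 36 and 23.7 CPM in Ctrl and 42.6 and 42.0 CPM in Confine. The groups did not overlap, but Ctrl 2 stood nearer to the Confine libraries than to the other Ctrl libraries. The log2 fold change was 0.60 (SE 0.20, edgeR adjusted p = 0.0415), close to the threshold. The call was lost without Ctrl 1 (0.50, adjusted p = 0.171), without Ctrl 3 (0.48, adjusted p = 0.130), without Confine 1 (0.59, adjusted p = 0.194), without Confine 3 (0.61, adjusted p = 0.195) and when TMM factors were left out (0.38, adjusted p = 0.189), all by edgeR. Without Ctrl 2 it was 0.82 and passed.

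Zeb1, on chromosome 18 from 5591860 to 5775467 (plus strand), had 77.7, 73.9 and 80.3 CPM in Ctrl and 99.2 and 105.2 CPM in Confine. The groups did not overlap and the replicates lay close together, with coefficients of variation of 4.17% and 4.19%. The log2 fold change was 0.40 (SE 0.17), and the edgeR p of 0.0323 became 0.107 after adjustment, so the gene did not pass. The log2 ratio of Zeb2 to Zeb1 was -1.68, -1.04 and -1.76 in Ctrl and -1.22 and -1.32 in Confine, with overlapping groups (exact permutation test over 3 against 2 libraries, p = 0.5). Of the 9 tested genes, 5 had groups that did not overlap (Snai1, Snai2, Prrx1, Zeb1 and Zeb2), as did 49.5% of all tested genes.

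Twist1 and Twist2 encode basic helix-loop-helix factors of mesenchyme. Twist1, on chromosome 12 from 33957671 to 33959829 (plus strand), had 6.08, 7.63 and 6.12 CPM in Ctrl and 7.33 and 9.33 CPM in Confine. The groups overlapped, and the log2 fold change of 0.33 had a 95% interval from -0.17 to 0.83 (edgeR adjusted p = 0.353). Twist2, on chromosome 1 from 91801461 to 91848028 (plus strand), had 2.87, 4.31 and 2.59 CPM in Ctrl and 3.07 and 3.26 CPM in Confine. Its log2 fold change was -0.043 with an interval from -0.70 to 0.61 (edgeR adjusted p = 0.942), so changes of up to 1.53-fold up or 1.62-fold down lie within the interval. With 61 to 114 counts per library, Twist2 was the tested member with the fewest reads. The log2 ratio of Twist2 to Twist1 was -1.08, -0.82 and -1.23 in Ctrl and -1.25 and -1.51 in Confine, without overlap (exact permutation test over 3 against 2 libraries, p = 0.2).

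**Figure D2:**
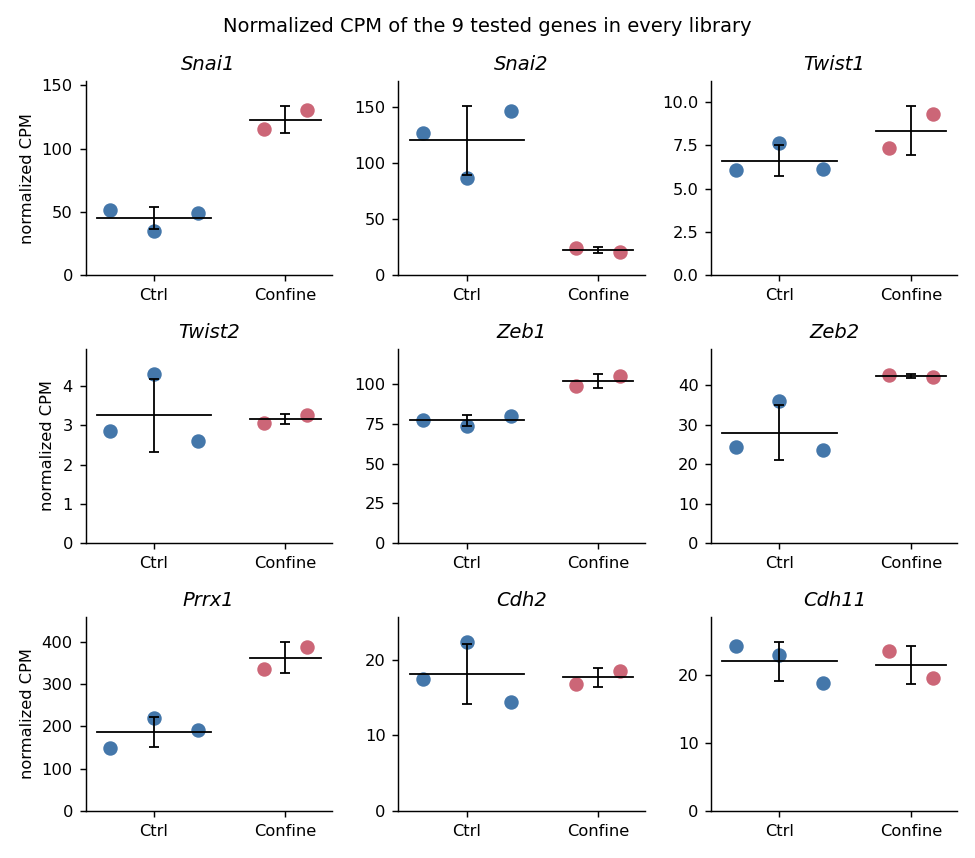
Normalized CPM (vertical axes, linear from 0, a scale for each gene) of the 9 tested genes in every library, with blue points for the 3 Ctrl and red points for the 2 Confine libraries, and black lines for the group mean and SD. Snai2 stands at 86.7 to 146.2 CPM in Ctrl and 20.4 to 24.0 CPM in Confine, and the points of Twist1, Twist2, Cdh2 and Cdh11 overlap between groups.

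The cadherins among the 10 genes showed no change that passed the test. Cdh1, which encodes E-cadherin, lies on chromosome 8 from 106603351 to 106670246 (plus strand) and had 1 count in Ctrl 3 and 0 counts in each of the other libraries. All libraries were under the floor of 3 counts, so no fold was computed, and levels of up to 0.101 to 0.128 CPM per library are compatible with a count of 0. Such floors take in counting error alone, because without molecular identifiers several reads can stem from 1 molecule.

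Cdh2 (N-cadherin), on chromosome 18 from 16588877 to 16809246 (minus strand), had 17.4, 22.3 and 14.5 CPM in Ctrl and 16.8 and 18.5 CPM in Confine. The Confine values lay within the Ctrl range. The log2 fold change was -0.033, with a 95% interval from -0.48 to 0.42 (edgeR adjusted p = 0.935). Cdh11, on chromosome 8 from 102632095 to 102785642 (minus strand), encodes a cadherin of mesenchymal and bone-forming cells. It had 24.2, 22.9 and 18.8 CPM in Ctrl and 23.4 and 19.5 CPM in Confine, and its log2 fold change was -0.034 with an interval from -0.45 to 0.38 (edgeR adjusted p = 0.928). The intervals of both genes leave room for changes of up to 1.40-fold down and 1.33-fold up for Cdh2 and up to 1.36-fold down and 1.30-fold up for Cdh11. The log2 ratio of Cdh11 to Cdh2 was 0.48, 0.036 and 0.37 in Ctrl and 0.48 and 0.069 in Confine (exact permutation test over 3 against 2 libraries, p = 1).

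**Figure D3:**
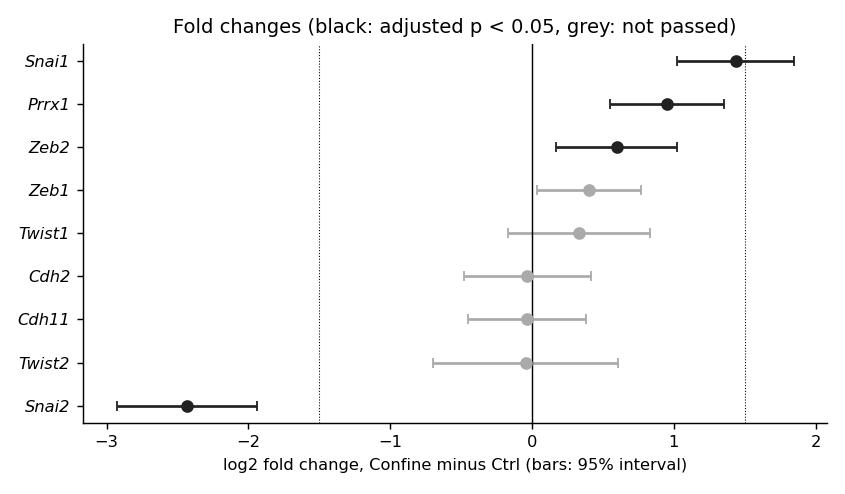
Log2 fold change, Confine minus Ctrl (horizontal axis), of the 9 tested genes (vertical axis) with 95% intervals, black where the edgeR adjusted p was under 0.05 and grey where it was not. Dotted lines mark the study's cutoff of 1.5, which Snai2 at -2.43 passed and Snai1 at 1.44 did not, and the intervals of Twist1, Cdh2, Cdh11 and Twist2 cross 0.

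Per exon length, the order of levels in Ctrl was Snai2 (59.3 RPKM), Snai1 (28.0), Prrx1 (16.9), Zeb1 (7.53), Twist1 (4.06), Cdh11 (2.47), Cdh2 (2.24), Zeb2 (1.40) and Twist2 (1.03), each in normalized RPKM. The neighbours Cdh11 and Cdh2, Cdh2 and Zeb2, and Zeb2 and Twist2 overlapped between libraries, and the others did not. In Confine, Snai1 led at 75.8 RPKM, followed by Prrx1 at 32.8 RPKM, Snai2 at 11 RPKM and Zeb1 at 9.95 RPKM, of which Snai2 and Zeb1 overlapped between libraries. Twist1 then had 5.12 RPKM, followed by Cdh11 (2.41), Cdh2 (2.19) and Zeb2 (2.12) RPKM, above Twist2 at 0.997 RPKM. Of these, Cdh2 overlapped with both Cdh11 and Zeb2, while Cdh11 and Zeb2 did not overlap. The exon length counts every annotated exon of a gene, so levels of genes with long alternative exons, such as Zeb2, are understated.

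Some of these counts could hold reads of neighbours or copies, since the settings used for counting are not given in the sources used here. Twist2 overlaps the antisense gene Gm29100 in its exons (mean counts 13.9% of those of Twist2) and encloses Gm29101 on its own strand (65.0%). Zeb2os (2.12% of Zeb2) and Gm10125 (2.49% of Zeb1) lie opposite to exons. Transcripts of Cdh11 share stretches of 589 to 990 bases, at 95.1% to 96.3% identity, with transcripts of other genes. Those of Zeb1 share shorter stretches of 104 to 106 bases, at 95.2% to 98.1% identity, with transcripts of many genes other than Gm10125. For Snai1, Snai2, Twist1, Prrx1, Cdh1 and Cdh2, no match of at least 100 bases at 95% identity to another gene's transcript was found by blastn.

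Among the other 20 classical and related cadherin genes, 7 were tested, and 3 rose and 3 fell. Cdh13 (T-cadherin, which is anchored to the membrane by a lipid), named here after its values were seen, was the most abundant cadherin per exon length, at 21.4 ± 4.68 RPKM (SD, n = 3) in Ctrl and 44.7 ± 5.62 RPKM (SD, n = 2) in Confine, and rose with a log2 fold change of 1.06 (SE 0.20, edgeR adjusted p = 6.56e-04). Cdh17 and Cdh23, at far lower levels, rose with log2 fold changes of 2.02 (edgeR adjusted p = 3.18e-05) and 1.80 (adjusted p = 8.79e-04). Cdh3 (P-cadherin), a classical cadherin of epithelia, had 10.2, 7.07 and 6.42 CPM in Ctrl and 0.878 and 1.47 CPM in Confine. It fell by 2.76 on the log2 scale (SE 0.34, edgeR adjusted p = 7.60e-06), the largest fall among the tested cadherins. Cdh26 fell by 2.03 (edgeR adjusted p = 3.14e-05) and Cdh18, also named after its values were seen, by 1.56 (adjusted p = 0.00110). The median log2 fold change of the 7 genes was -0.88. Of the 13 genes not tested, 8 had 0 counts in every library.

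**Figure D4:**
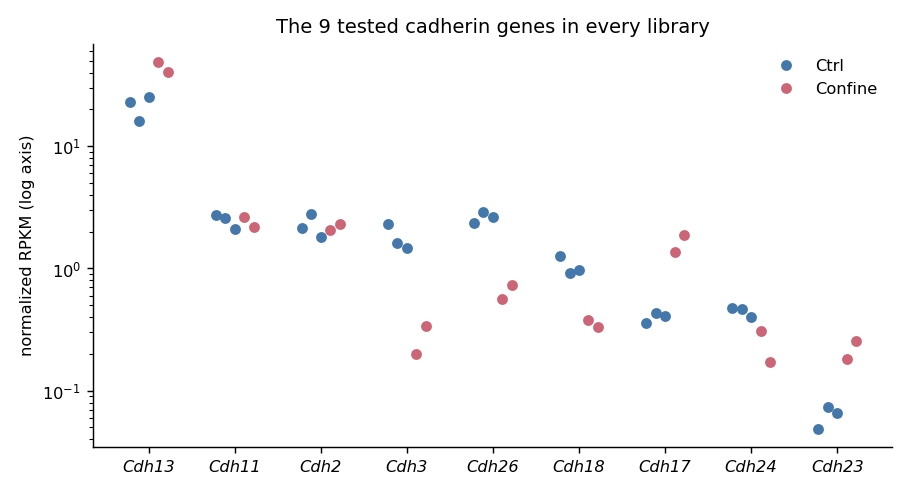
Normalized RPKM (vertical axis, log scale) of the 9 tested cadherin genes in every library, with blue points for Ctrl and red points for Confine. Cdh13 stands highest, at 16.2 to 25.1 RPKM in Ctrl and 40.7 to 48.6 RPKM in Confine, Cdh11 and Cdh2 overlap between groups, and Cdh3, Cdh26 and Cdh18 are lower and Cdh17 and Cdh23 higher in Confine.

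Catenins tie cadherins to the actin cytoskeleton. Of 14 catenin and junction adaptor genes, 12 were tested, 2 rose, none fell, and the median log2 fold change was 0.096. Among those that rose was Tjp1, a tight junction scaffold gene (0.66, SE 0.19, edgeR adjusted p = 0.0191). Its call was lost in 5 of 15 alternatives to the fit, among them library size alone and leaving out any of Ctrl 1, Ctrl 3 or Confine 1. Ctnnb1 (β-catenin) had 124.8 ± 14.8 CPM (SD, n = 3) in Ctrl and 108.1 ± 2.57 CPM (SD, n = 2) in Confine, and did not pass (edgeR adjusted p = 0.462).

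Id proteins lack a DNA-binding region and hold basic helix-loop-helix factors, among them the E-proteins that pair with Twist, in inactive dimers. Of 7 such partners and inhibitors, all tested, 1 rose and 2 fell, with a median log2 fold change of -0.096. Id3 had 1436, 1582 and 1833 CPM in Ctrl and 300.5 and 250.4 CPM in Confine, and fell by 2.55 on the log2 scale (SE 0.20, edgeR adjusted p = 4.94e-08). Id1 had 43.4, 38.5 and 42.1 CPM in Ctrl and 6.11 CPM in both Confine libraries, and fell by 2.76 (SE 0.21, edgeR adjusted p = 2.21e-08). The groups of both genes were far apart. Id2 rose slightly (0.55, edgeR adjusted p = 0.0412), a call that was lost in 6 of 15 alternatives to the fit. Among these were library size alone (0.34, edgeR adjusted p = 0.204) and no filter on low counts (edgeR adjusted p = 0.0604). The call was also lost without Ctrl 1, Confine 1 or Confine 3. The E-protein genes Tcf3, Tcf4 and Tcf12 did not pass, with log2 fold changes of -0.096, 0.34 and -0.047.

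Of 11 genes of co-repressors recruited by Snail and Zeb factors, all tested, 1 rose and 3 fell, with a median log2 fold change of -0.25. Over all tested genes, 12.8% rose and 10.2% fell. Rcor1, the CoREST scaffold that works with the histone demethylase Kdm1a, rose (0.76, SE 0.19, edgeR adjusted p = 0.00783). The histone methyltransferase genes Suv39h1 (-0.97, edgeR adjusted p = 0.00155) and Ezh2 (-0.76, adjusted p = 0.00435) and the deacetylase gene Sirt1 (-1.03, adjusted p = 0.00918) fell. The calls of Rcor1 and Sirt1 were lost without either of Confine 1 or Confine 3, and that of Ezh2 without Confine 1. In all, the call of Rcor1 was lost in 3 of 15 alternatives to the fit. Of 8 genes that act in the breakdown of Snail, Twist and Zeb proteins, such as the kinase gene Gsk3b and the ubiquitin ligase genes Btrc and Fbxl14, 0 passed by edgeR's test. Of 6 tested genes among 14 related factors, 0 passed. The one nearest to the threshold was Klf8, named after its values were seen, with 9 to 17 counts in Ctrl and 2 and 3 counts in Confine (edgeR adjusted p = 0.0502).

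Of 24 epithelial genes, 20 were not tested, and 9 had 0 counts in every library, among them Epcam, Krt18, Ocln and Dsp. Krt19, an epithelial keratin gene, had 4, 7 and 5 counts in Ctrl and 114 and 204 counts in Confine and rose with a log2 fold change of 4.84 (SE 0.44, edgeR adjusted p = 2.57e-07). The Confine libraries were far above Ctrl but also far from each other. Krt8, which pairs with such keratins, had at most 17 counts in any library. Pkp3, a desmosome plaque gene with 16 to 59 counts per library, fell by 1.40 (edgeR adjusted p = 0.0268). The call was lost in 5 of 15 alternatives to the fit, among them leaving out any one of Ctrl 1, Ctrl 3, Confine 1 or Confine 3. The summed level of the list was 18.7 to 22.3 CPM in Ctrl and 19.7 to 19.9 CPM in Confine. Cgn, named after its values were seen, had the highest level of the list. It had 16.8 ± 1.41 CPM (SD, n = 3) in Ctrl and 11.1 ± 2.94 CPM (SD, n = 2) in Confine. It did not pass (edgeR adjusted p = 0.0626). Krt19 went the other way, from a mean of 0.205 to 5.98 CPM, so the similar sums do not describe unchanged genes.

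Of 20 mesenchymal genes, 15 were tested, 7 rose and 1 fell, and the median log2 fold change was 0.63. Those not tested were Lum, Thy1 and Dcn, given above, Tagln with at most 8 counts and Fap with at most 1 count in any library. The collagen gene Col3a1 had 259.2, 270.9 and 219.4 CPM in Ctrl and 1221 and 1086 CPM in Confine and rose with a log2 fold change of 2.21 (SE 0.18, edgeR adjusted p = 5.78e-08). The matrix genes Tnc (1.30, adjusted p = 8.10e-05) and Fn1 (1.04, adjusted p = 3.09e-04) and the intermediate filament gene Vim (0.97, adjusted p = 3.51e-04) also rose. Postn, a matrix gene named after its values were seen, fell by 0.96 (edgeR adjusted p = 0.00557). Acta2, the smooth muscle actin gene, had 2241 ± 630 CPM (SD, n = 3) in Ctrl and 1491 ± 118 CPM (SD, n = 2) in Confine and did not pass (edgeR adjusted p = 0.0557).

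**Figure D5:**
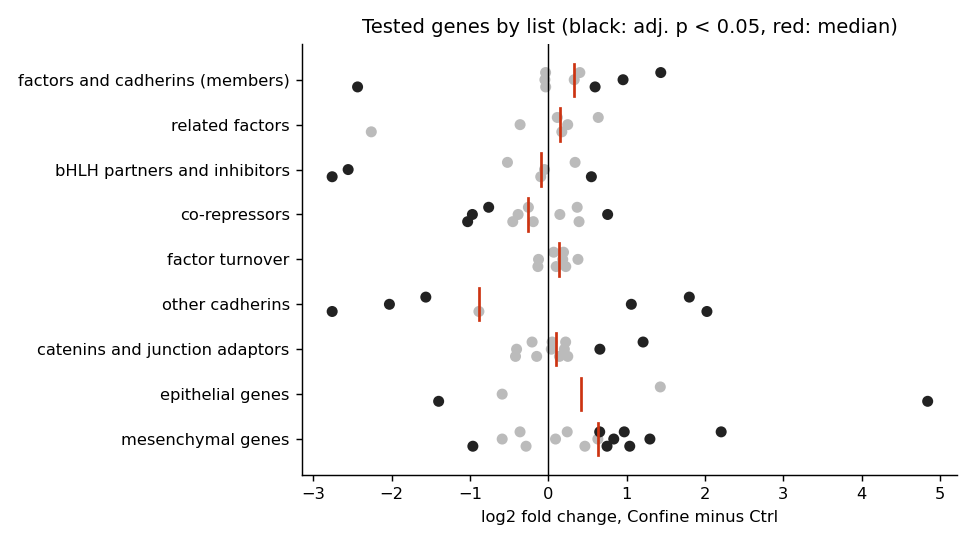
Log2 fold change, Confine minus Ctrl (horizontal axis), of each tested gene in 9 gene lists (vertical axis), black where the edgeR adjusted p was under 0.05, grey where it was not, with a red line at the median of each list. Snai2, Id1, Id3 and Cdh3 lie below -2.4, Krt19 lies at 4.84, and the 8 tested genes of factor turnover and the 6 related factors are all grey.

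Most markers of other cell types had too few counts to be tested. Of 10 leukocyte markers, 4 were tested, 3 rose (Cd68, Csf1r and Cd14) and 1 fell (Lyz2). Ptprc had at most 2 counts, and Cd3e, Adgre1 and Tyrobp had 0 counts in every library. Cd68 had 3.14 ± 0.77 CPM (SD, n = 3) in Ctrl. In Confine it had 16.6 and 23.3 CPM, close to the Confine levels of Cdh2 and Cdh11. Its log2 fold change was 2.67 (SE 0.25, edgeR adjusted p = 3.94e-07), and 2.40 to 2.90 in the alternatives to the fit. Cd14 had 8.66 ± 1.68 CPM (SD, n = 3) in Ctrl and 16.4 ± 1.31 CPM (SD, n = 2) in Confine. The call of Csf1r was kept in 6 of 14 alternatives to the fit and that of Cd14 was lost without Confine 1 (edgeR adjusted p = 0.0683). Their summed level was 15.8 to 17.8 CPM in Ctrl and 35.6 to 41.3 CPM in Confine. Of 8 endothelial markers, Vwf was the 1 tested and rose (2.64, edgeR adjusted p = 3.20e-04), and Pecam1 and Cdh5 had at most 8 and 4 counts. The summed endothelial level was 0.595 to 1.36 CPM in Ctrl and 2.43 to 2.70 CPM in Confine. The part of these markers in the changes of the 10 genes was not tested.

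The tested genes with the most similar profiles were found by the distance between log2 CPM values centred on each gene's mean over the 5 libraries. Nearest to Snai1 were Gcnt2 (distance 0.101) and Lrp5 (0.118), and nearest to Snai2 were Dlx5 (0.193) and Tox (0.306). Nearest to Zeb2 were Mosmo (0.0522) and Tmem170 (0.10), and nearest to Prrx1 were Gm15441 (0.128) and Xdh (0.142). Gm15441 did not pass (log2 fold change 1.04, edgeR adjusted p = 0.145), and the other neighbours named here passed in the direction of their member. Pearson's r of the members with their neighbours was 0.993 to 0.999, as a description over 5 libraries in 2 groups.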

How the data were processed

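Poly(A) RNA of MEFs was sequenced after polyT selection, with dUTP in the second cDNA strand. The authors deposited raw counts per gene, not normalized, in 6 columns. The submitters' processing notes name Trim Galore 0.6.10, HISAT2 2.1.0, SAMtools 1.5, featureCounts and the genome build mm10. Settings and annotation are not given in the sources used here. Of 55335 gene identifiers, 55154 match GENCODE M21 (GRCm38) without version, which gave symbols, positions and exon lengths. Overlapping genes or near-identical copies could share reads at these steps.

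Identical Confine columns were used once, so 3 Ctrl and 2 Confine libraries were fitted where 3 against 3 were labelled. Genes kept by filterByExpr (15881) were scaled with TMM factors and compared in edgeR 4.0.16 (R 4.3.3) by its quasi-likelihood F-test, where 3 residual degrees of freedom were joined by prior ones (median 14.8), with Benjamini-Hochberg adjustment. SE is the absolute log2 fold change divided by the root of the F statistic, and 95% intervals use it. Ratios were tested by exact permutation. Counts were simulated for 15881 genes, some of them changed by 1 or 2 on the log2 scale. The filter on low counts kept 99 genes changed by 1 and 99 changed by 2. From these edgeR recovered 62.6% and 87.9%, and 5.1% of its calls were false. Far more genes passed in the data (3654), so these rates need not hold for the reported fit. Copies were searched with blastn 2.17.0. Alternatives were DESeq2 1.42.0, limma-voom (limma 3.58.1), other normalizations and filters, a replicate block, the identical columns counted as 2 and leaving out each library.

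The 10 genes and the gene lists were chosen with earlier results of these data known. Genes named are all 10, up to 4 genes per list with the largest change among those that passed, and the 2 nearest profiles of each of the 10 that passed. Others are said to be named after their values were seen, or are given as unpassed or lowly counted examples. Each of the 6 columns matched 1 labelled sample. Some listed genes are not reported here.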

Additional observations from a re-analysis of the deposited data

How the results depend on the processing

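Snai1 (log2 fold change 1.23 to 1.56), Snai2 (-2.64 to -2.29) and Prrx1 (0.74 to 1.10) passed with unchanged direction in all 15 alternatives to the fit, and Zeb2 in 9 of 15 (0.38 to 0.82). Zeb1 passed in 1, with the identical columns counted as 2 libraries (0.38, adjusted p = 0.0244), and Twist1, Twist2, Cdh2 and Cdh11 in none. From 2 to 4 of the 9 genes rose and 1 fell in these fits. With a log2 fold change above 1.5 also required in the fit as reported, 0 rose, whereas Snai1 was above it without Ctrl 1 (1.54), without Confine 1 (1.52) and with the replicate block and the identical columns as number 2 (1.56). Library size alone moved the median log2 fold change of all genes by -0.21, and changes are to be read relative to that shift. Some values near 0 changed sign: Twist2 to 0.21 with the replicate block and the identical columns as number 1, Cdh2 to 0.15 and Cdh11 to 0.0021 in the same fit, and Cdh11 to 0.043 with these columns as number 2. Leaving out 1 library gave -0.20 to 0.21 for Twist2, -0.19 to 0.14 for Cdh2, -0.17 to 0.092 for Cdh11 and -0.23 to 0.18 for the ratio of Cdh11 to Cdh2.

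The number of tested genes that passed was 3654 (2035 higher, 1619 lower), and 1271 (777 higher, 494 lower) with the cutoff on the fold. Leaving out 1 library gave 2054 to 4426 genes in all, 1196 to 2411 higher and 850 to 2015 lower, with the fewest in all without Confine 3 (2054) and Confine 1 (2256). With a single Confine library left, its spread is assumed to equal that of Ctrl. Of all genes, 2805 were lower with library size alone and 2456 with the identical columns counted as 2 libraries. With the replicate block, which leaves 1 residual degree of freedom, Zeb2 had 0.53 (adjusted p = 0.192) with the identical columns as number 2. The replicate numbers share little. For each gene, the difference between 2 Ctrl libraries was set against that between the Confine libraries of the same numbers. Over 15881 genes these differences had correlations of 0.052 with the identical columns as number 1 and -0.053 as number 2. Among the 10457 better expressed genes (log2 CPM cutoff of 2) the correlations were 0.0909 and -0.108. The causes were not tested. Genes with few reads, such as Twist2, and the 2 Confine libraries limit what could be detected.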
